A study of Mus musculus with 9 samples.

Results

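The clustered protocadherins are the 58 genes of the Pcdha, Pcdhb and Pcdhg clusters, taken from the 18820 genes of the table by symbol, which the Ensembl gene IDs gave through the GENCODE M21 annotation. All genes whose symbols begin with Pcdha, Pcdhb, Pcdhga, Pcdhgb or Pcdhgc followed by a number, or with Pcdhac, were kept, and no expression value entered the choice. They comprise 14 alpha, 22 beta and 22 gamma genes. RNA was sequenced from embryonic cortex of the strain C57BL/6J, taken at embryonic day 18.5, in 3 libraries with a homozygous Cyfip2 mutation (KO), 3 heterozygous libraries (Het) and 3 wild-type libraries (WT), to ask what mutation of 1 or both copies changes in the cortical transcriptome. All groups share the strain, tissue and stage. The labels give no description of the mutant allele. Nothing in them ties each library to an embryo of its own, and p-values therefore describe only how these libraries vary, which may be in part technical. Within KO and within Het, the Y-linked gene Ddx3y was at 0 in some libraries and not in others. In neither genotype were all libraries thus repeats of the same embryo.

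Clustered protocadherins are cell surface proteins of the cadherin superfamily that bind like to like, and the combination a neuron shows lets its branches recognise and avoid each other. In the alpha and gamma clusters each variable exon has its own promoter and is spliced to constant exons shared by the whole cluster, whereas beta genes are single variable exons without a constant part. Single neurons choose a few alpha, beta and gamma promoters largely at random, with the help of the DNA-binding protein CTCF and of cohesin, while the C-type genes (Pcdhac1, Pcdhac2, Pcdhgc3, Pcdhgc4 and Pcdhgc5) are used more uniformly. The cytoplasmic part shared by alpha proteins can bind the WAVE complex, the actin regulator of which Cyfip2 is a subunit. RNA from a piece of cortex sums over many such neurons, and in bulk samples fewer cells of a type and less RNA per cell cannot be told apart.

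All 58 genes lie on the plus strand of chromosome 18 of the mouse build GRCm38. The alpha cluster spans chr18:36930184-37187661, the beta cluster chr18:37264938-37524479 and the gamma cluster chr18:37661793-37841873. The shared constant exons set a limit on what a value per gene can mean. Between 38.0% and 54.9% of the exon bases of an alpha gene, and between 27.8% and 66.8% of those of a gamma gene, were also exon bases of another member. Among beta genes only Pcdhb21 (9.67%) and Pcdhb22 (6.88%) shared any. Of all 31-base words in a gene's transcripts, a median of 36.5% in alpha, 53.8% in gamma and 88.2% in beta genes occurred in no other gene, with the lowest value, 9.32%, in Pcdha4. The values of single alpha and gamma genes are therefore uncertain, since reads from the constant exons and other shared exon bases could be split among members, and those of beta genes are less so. Of the 11 other genes of the table that lie between the first and the last member, 9 were gene models without a proper name, with no value above 21.5 normalized counts, and 3 of these (Gm37013, Gm37388 and Gm42416) are annotated from the alpha into the gamma cluster.

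The libraries differed in ways that the genotype does not give, and these differences accompany every comparison. Values are normalized counts, gene counts that the authors divided by a size factor per library, and the shallowest library, KO replicate 1, held about 29.5 M reads (M, mega) against about 54.5 M in the deepest, WT replicate 2. Cyfip2 itself lay between 7522 and 8255 in KO, between 8969 and 9882 in Het and between 10169 and 11174 in WT, in the order of the labels. Cdhr1, a marker of olfactory bulb neurons, was between 2138 and 3436 in KO replicates 1 and 2, in Het replicate 1 and in WT replicate 3, against 21.8 to 53.1 in the 5 libraries that remain. The Y-linked gene Ddx3y was listed at 0 in 3 libraries, KO replicates 1 and 2 and Het replicate 1, and the remaining 6 had 1394 to 1674. Summed over 9 markers of cortical excitatory neurons, normalized counts were 85139, 85180 and 117569 in KO, 104538, 102677 and 112623 in Het, and 102401, 97098 and 99893 in WT, so these markers were present in all libraries and the KO libraries ranged most widely. Het replicate 3 was low in meningeal RNA, with Col1a1 at 87.2 against 2206 to 5328 elsewhere. Summed over 7 markers of choroid plexus, normalized counts were 714, 1078 and 386 in KO, 443, 12144 and 70.1 in Het, and 372, 3694 and 512 in WT. Replicate 2 thus had the highest sum in each genotype, but in KO this rested on Ttr, with 128, 624 and 75.5. Of the other markers, Aqp1, Clic6 and Otx2 were highest in KO replicate 1, and Folr1, Kl and Kcne2 in KO replicate 2. Summed over 8 markers of GABAergic interneurons, the 4 libraries with high Cdhr1 had 17056 to 20035 normalized counts and the other 5 had 12943.5 to 14903. Of these markers Lhx6 was lower in those 4 libraries, and Sst and Npy were mixed. The part of these differences in the values below was not tested. Results that rest on them are given with and without the 4 libraries that held olfactory bulb RNA, a split that also separated the interneuron sums.

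The gamma cluster gave most of the RNA. Averaged over the 9 libraries its genes summed to 31689 normalized counts, not corrected for length, 69.0% of the sum over all 3 clusters, while alpha genes gave 17.1% and beta genes 13.9%. All clusters together made up 0.124% of the table. 57 of the 58 genes reached a mean of 10 and were tested. The exception was Pcdhb1, the first gene of the beta cluster, with a mean of 0.889, and the lowest tested gene was Pcdha8 with 46.4.

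Per kilobase of exon, a scale on which genes of different length can be compared, the C-type genes were at both ends. Pcdhgc3, which supports the growth of dendritic arbors, had the highest level of all members, 1764 normalized counts per kilobase. Pcdhgc4, which is needed for the survival of many neurons, followed with 520 and Pcdhga11 with 438. Pcdhgc5, a C-type gene linked to inhibitory synapses, stood at 59.7, close to the low end of the gamma cluster, which was set by Pcdhgb8 (annotated as a polymorphic pseudogene) at 31.2. In the alpha cluster Pcdhac2, which serotonergic axons need to space themselves, led with 284 normalized counts per kilobase, ahead of Pcdha12 with 196 and Pcdha9 with 143. The other alpha C-type gene, Pcdhac1, was at 27.9, and only Pcdha1 (14.7) and Pcdha8 (8.70) were lower in that cluster.

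The tested beta genes spanned the narrowest range. Pcdhb20 (165 normalized counts per kilobase), Pcdhb17 (158) and Pcdhb7 (129) led, and Pcdhb14 had the lowest level of a tested beta gene, 22.1. The highest tested level per kilobase was 7.48 times the lowest in the beta cluster, 32.6 times in the alpha cluster and 56.6 times in the gamma cluster. With the length of the longest coding transcript in place of merged exons, a choice added after seeing the data, the gamma figure became 40.3. These ratios are set by the extreme genes and leave out the untested Pcdhb1, at 0.344 per kilobase of merged exons. Apart from Pcdhgc3 and Pcdhgb8 the gamma genes ran from 59.7 to 520. Apart from Pcdha1 and Pcdha8 the alpha genes ran from 27.9 to 284.

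**Figure D1:**
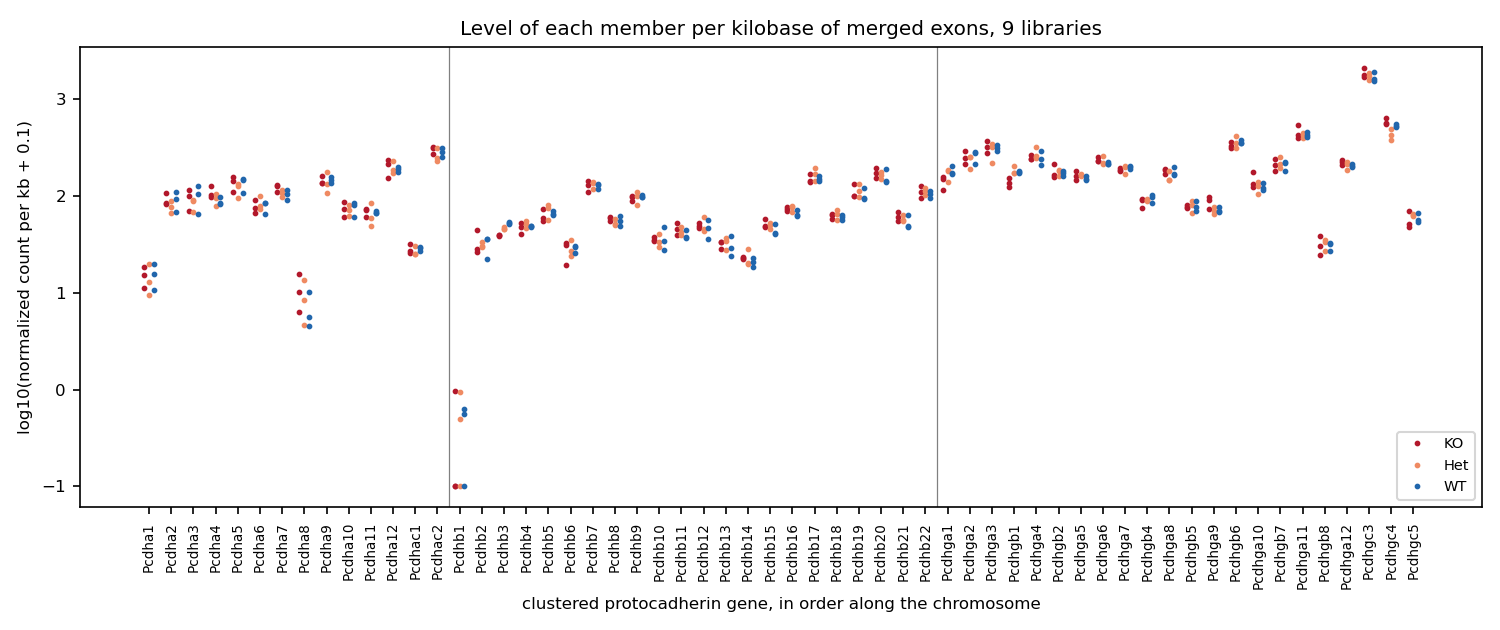
Level of each clustered protocadherin per kilobase of merged exons, as log10 of the normalized count per kilobase plus 0.1, in gene order with lines between the alpha, beta and gamma clusters and 1 point per library coloured by genotype. Pcdhgc3 stands highest in every library, the tested beta genes span a narrower range than the alpha and gamma genes, and Pcdhb1 lies far below the rest.

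Pcdhgc3 led the gamma cluster and Pcdhac2 the alpha cluster in every library, while the leading beta genes were not separated. Pcdhgc3 had 9908, 11628 and 9307 normalized counts in KO, 9605, 10191 and 8690.3 in Het, and 8931, 10547 and 8509.8 in WT. The genotypes overlapped, and Pcdhgc3 took between 28.0% and 32.9% of the gamma sum in every library. Pcdhac2 took between 19.7% and 21.9% of the alpha sum, with 1585, 1907 and 1849.9 in KO, 1358, 1468 and 1841 in Het, and 1492, 1679 and 1847 in WT, and its genotypes overlapped as well. In the beta cluster Pcdhb19, Pcdhb17 and Pcdhb22 took 12.2%, 11.5% and 11.3% of the sum on average, and their ranges over libraries (11.3% to 13.6%, 10.5% to 12.6% and 10.7% to 11.9%) overlapped.

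KO was set against WT to see what differs when both copies of Cyfip2 are mutant. No protocadherin differed by the test over all genes, and the summed output of each cluster was nearly equal between the genotypes. The alpha genes summed to 7242, 8852 and 8598 normalized counts in KO, 6553, 7473 and 8519 in Het, and 7126, 7835 and 8593 in WT. The beta genes summed to 5903, 6359.8 and 7049.8 in KO, 5843, 6631 and 7268 in Het, and 5893, 5830.5 and 6847 in WT. The genotypes overlapped in both clusters, and the spread within each genotype was wider than the distance between their means.

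The gamma sums were 31222, 35352 and 31376 in KO, 30062, 32378 and 30581 in Het, and 30469, 33365 and 30392 in WT, again overlapping. As means over 3 libraries each, alpha was 8231 ± 866 in KO and 7851 ± 734 in WT, beta 6437 ± 577 and 6190.2 ± 570, and gamma 32650.1 ± 2342 and 31409 ± 1695 (SD, KO first in each pair). The log2 ratios of the KO to the WT means were 0.07 for alpha, 0.06 for beta and 0.06 for gamma. Those of Het to WT were -0.06, 0.09 and -0.02.

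**Figure D2:**
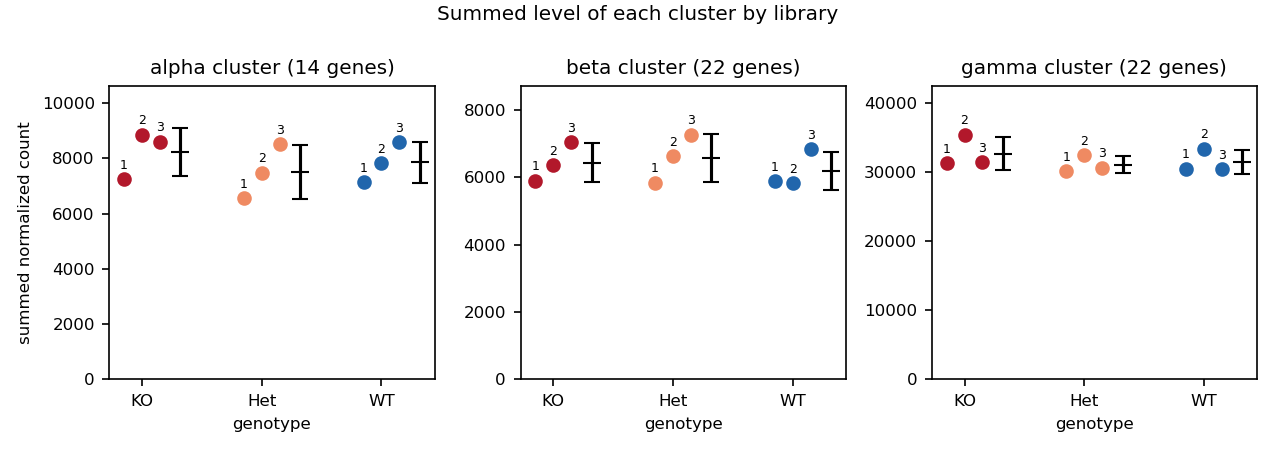
Summed normalized counts of the alpha, beta and gamma genes in each library (points, numbered by replicate) with the mean and SD of each genotype (bars beside the points, n = 3). The genotypes overlap in all 3 clusters, and the gamma sum is several times the alpha and beta sums.

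Of the 57 tested genes, 0 passed for KO against WT by limma with Benjamini-Hochberg adjustment (smallest adjusted p = 1.00), as did 0 of all 15069 genes tested (0%), of which 178 had an unadjusted p under 0.05 (1.18%). Among the members 3 were past that unadjusted limit, all with lower values in KO: Pcdhb3, Pcdhgb1 and Pcdhga1. This limit was passed by 0.637% of all genes with lower and by 0.544% with higher values in KO. The direction depended on the model. With sex as a covariate 3 members were past the limit with higher values (Pcdha7, Pcdhb19 and Pcdhga3) and 1 with a lower value (Pcdhb3). Of all genes 3.53% were then past it in either direction. The 3 KO libraries lay entirely above the 3 WT libraries in 3 members (Pcdha4, Pcdhga6 and Pcdhgc4) and entirely below them in 3 (Pcdhb3, Pcdhga1 and Pcdhgb1). Such separation occurred in 6.46% of all genes tested, 3.17% above and 3.3% below. In total 35 members had a positive and 22 a negative log2 fold change, against 48.4% positive among all genes. The median log2 fold change was 0.02 in alpha, 0.07 in beta, 0.03 in gamma and -0.00 over all genes.

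These medians depended on the libraries used. In the 5 libraries without olfactory bulb RNA (1 KO, 2 Het and 2 WT), a setting added after seeing the data, the KO to WT medians were 0.24 in alpha, 0.21 in beta and -0.10 in gamma. In the 4 libraries with it (2 KO, 1 Het and 1 WT) they were -0.09, -0.13 and 0.13. The median was thus opposite in sign between the 2 sets of libraries in every cluster. In a planned fit of all 9 libraries, with the median log2 level of olfactory bulb markers as a covariate, no sign turned. The medians there were 0.05 in alpha, 0.09 in beta and 0.03 in gamma. Each of the 2 sets had a lone library in at least 1 genotype, which the fit assumes to vary like the others. In the set with olfactory bulb RNA, Ddx3y was at 0 in the KO and Het libraries but not in the WT library. There sex cannot be told apart from genotype in comparisons with WT. No member passed in either set. Single libraries could also turn the sign: the alpha median was -0.0089 without KO replicate 2 and -0.031 without WT replicate 1, and the gamma median was -0.04 without KO replicate 2.

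Pcdhb3 was the member with the smallest p. This beta gene (ENSMUSG00000045498) is a single exon at chr18:37300799-37304585, and 92.1% of its 31-base words occur in no other gene. Its normalized counts were 150.02, 147.69 and 150.13 in KO, 173.4, 170.8 and 178.9 in Het, and 195.9, 198.5 and 205.8 in WT. The genotypes did not overlap, with KO lowest, Het between and WT highest.

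The means of Pcdhb3 were 149 ± 1.38 in KO, 174 ± 4.15 in Het and 200.04 ± 5.12 in WT (SD, n = 3), so KO stood at 74.6% and Het at 87.2% of WT. The log2 fold change of KO against WT was -0.42 ± 0.11 (SE), with a 95% interval from -0.68 to -0.16, an unadjusted p = 0.00536 and an adjusted p = 1.00 by limma. An exact permutation test of 3 against 3 libraries gave p = 0.10, the smallest it can give. For Het against WT the log2 fold change was -0.20 ± 0.11 and for KO against Het -0.22 ± 0.11, and neither interval excluded 0. The KO to WT value was -0.39 in the libraries without olfactory bulb RNA, -0.46 in those with it and -0.41 with sex as a covariate. It kept its sign in all 20 alternatives and passed in none. Several of these, such as leaving out a Het library, cannot change a KO to WT value.

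Pcdhb3 was the only member in which the order KO below Het below WT held with no overlap, and 0 members had the reverse order. Over all genes tested, 6 showed the first order (0.0398%), Cyfip2 among them, and 1 the second (0.00664%). The agreement of its replicates was closer than counting allows on average. Counting error alone, from the approximate depth, would give SDs of 12.7 in KO, 13.3 in Het and 13.7 in WT, above the measured 1.38, 4.15 and 5.12. Only 61 of all genes tested (0.405%) had a smaller spread within genotypes.

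Next to it in the list stood genes at the start of the gamma cluster. Pcdhgb1 (ENSMUSG00000103037), a gamma B gene, had 724.6, 782.9 and 893.8 normalized counts in KO, 1001, 992.1 and 1189.7 in Het, and 1005, 1045 and 1013 in WT. All KO libraries were below all Het and all WT libraries, while Het and WT overlapped. The log2 fold change was -0.36 ± 0.10 for KO against WT (unadjusted p = 0.00675, adjusted p = 1.00, limma) and -0.41 ± 0.10 for KO against Het (unadjusted p = 0.00316, adjusted p = 0.942, limma). Against WT it was -0.20 in the libraries without olfactory bulb RNA and -0.43 in those with it, and -0.23 with sex as a covariate. Pcdhgb1 shared 3154 exon bases with other members and Pcdhga4 shared 3157, against 2119 in most gamma genes. Of the 31-base words of Pcdhgb1, 36.1% occur in no other gene. Pcdhga4 had a KO to WT value of 0.02 ± 0.13. The part of shared reads in the Pcdhgb1 value was not tested.

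Pcdhga1 (ENSMUSG00000103144), the first gene of the gamma cluster, was chosen with its values known. It had 619.1, 850.7 and 807.8 normalized counts in KO, 751.3, 998.9 and 980.9 in Het, and 916.5, 924.2 and 1105 in WT. KO lay below WT in every library, with Het overlapping both. The log2 fold change of KO against WT was -0.38 ± 0.16 (unadjusted p = 0.0386, adjusted p = 1.00, limma), and it was -0.19 without and -0.61 with olfactory bulb RNA, and -0.24 without KO replicate 1. With sex as a covariate it was also -0.19, and neither Pcdhga1 nor Pcdhgb1 was then past the unadjusted limit. The genes that follow along the cluster, Pcdhga2 and Pcdhga3, had log2 fold changes of -0.04 ± 0.17 and 0.04 ± 0.17.

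Within the gamma cluster the subfamilies had median log2 fold changes for KO against WT of 0.05 in the 12 gamma A genes, -0.01 in the 7 gamma B genes and 0.14 in the 3 gamma C genes. Of the gamma B genes 2 had a positive value, and their sums were 5409 ± 450.1 in KO and 5758 ± 217 in WT (SD, n = 3). The gamma C genes summed to 14026 ± 1086 in KO and 12762 ± 1207 in WT. Both sums overlapped between KO and WT, and all gamma genes share their constant exons.

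**Figure D3:**
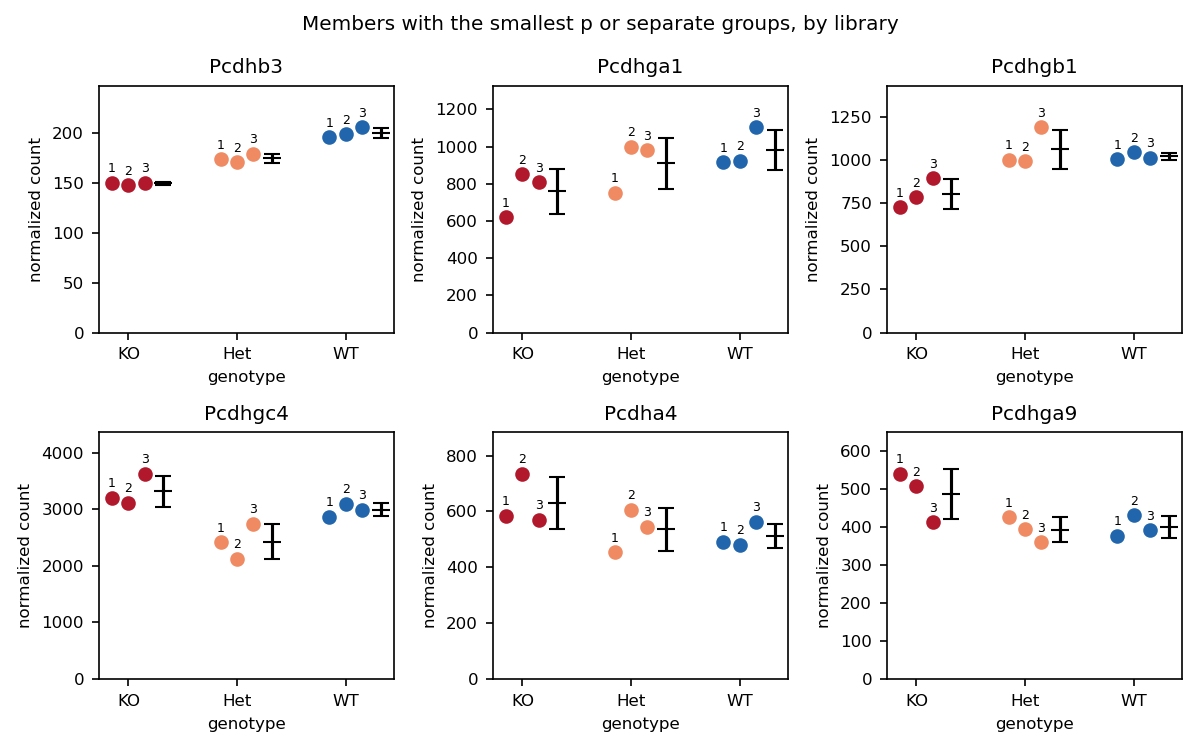
Normalized counts of 6 members in each library (points, numbered by replicate) with the mean and SD of each genotype (bars beside the points, n = 3), on axes that start at 0. Pcdhb3 is ordered KO, Het, WT without overlap, Pcdhgb1 is lowest in KO and Pcdhgc4 lowest in Het, while Pcdhga9 overlaps between genotypes.

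Among the members with positive values, Pcdha4 had 585.2, 735.6 and 570.3 normalized counts in KO, 454.4, 606.3 and 545.9 in Het, and 491.6, 481.3 and 563.0 in WT. KO lay above WT in every library, and the log2 fold change was 0.29 ± 0.14 (adjusted p = 1.00, limma), or 0.18 without KO replicate 2. Of the alpha genes it has the smallest share of sequence of its own, as given above. Pcdha7 (0.25 ± 0.12), Pcdhga9 (0.28 ± 0.13) and Pcdhb16 (0.15 ± 0.11) had the smallest p among positive members of their clusters for KO against WT, and each overlapped between the genotypes. Pcdhga9 had a KO to WT value of 0.03 in the libraries without olfactory bulb RNA, 0.42 in those with it and 0.10 with sex as a covariate. The largest positive value belonged to the lowest tested gene, Pcdha8, at 0.64 ± 0.49, with 33.0, 83.3 and 53.7 in KO, 72.4, 44.1 and 24.5 in Het, and 23.9, 29.4 and 53.8 in WT.

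No C-type gene passed for KO against WT. The log2 fold changes were 0.14 ± 0.11 in Pcdhgc3, 0.15 ± 0.10 in Pcdhgc4, -0.07 ± 0.15 in Pcdhgc5, 0.09 ± 0.13 in Pcdhac2 and -0.02 ± 0.15 in Pcdhac1. Their 95% intervals all held 0, and the widest reached from -0.41 to 0.27 in Pcdhgc5 and from -0.36 to 0.32 in Pcdhac1. The value of Pcdhgc3 was -0.06 in the libraries without olfactory bulb RNA and 0.33 in those with it, and 0.05 without KO replicate 2. That of Pcdhgc4 was 0.28 without and 0.08 with olfactory bulb RNA, and 0.08 without KO replicate 3. Pcdhga6, singled out because its groups did not overlap, had 1086, 1199.7 and 1102 normalized counts in KO, 1008, 1046 and 1241 in Het, and 1053, 1026 and 1014 in WT, and a log2 fold change of 0.13 ± 0.09.

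**Figure D4:**
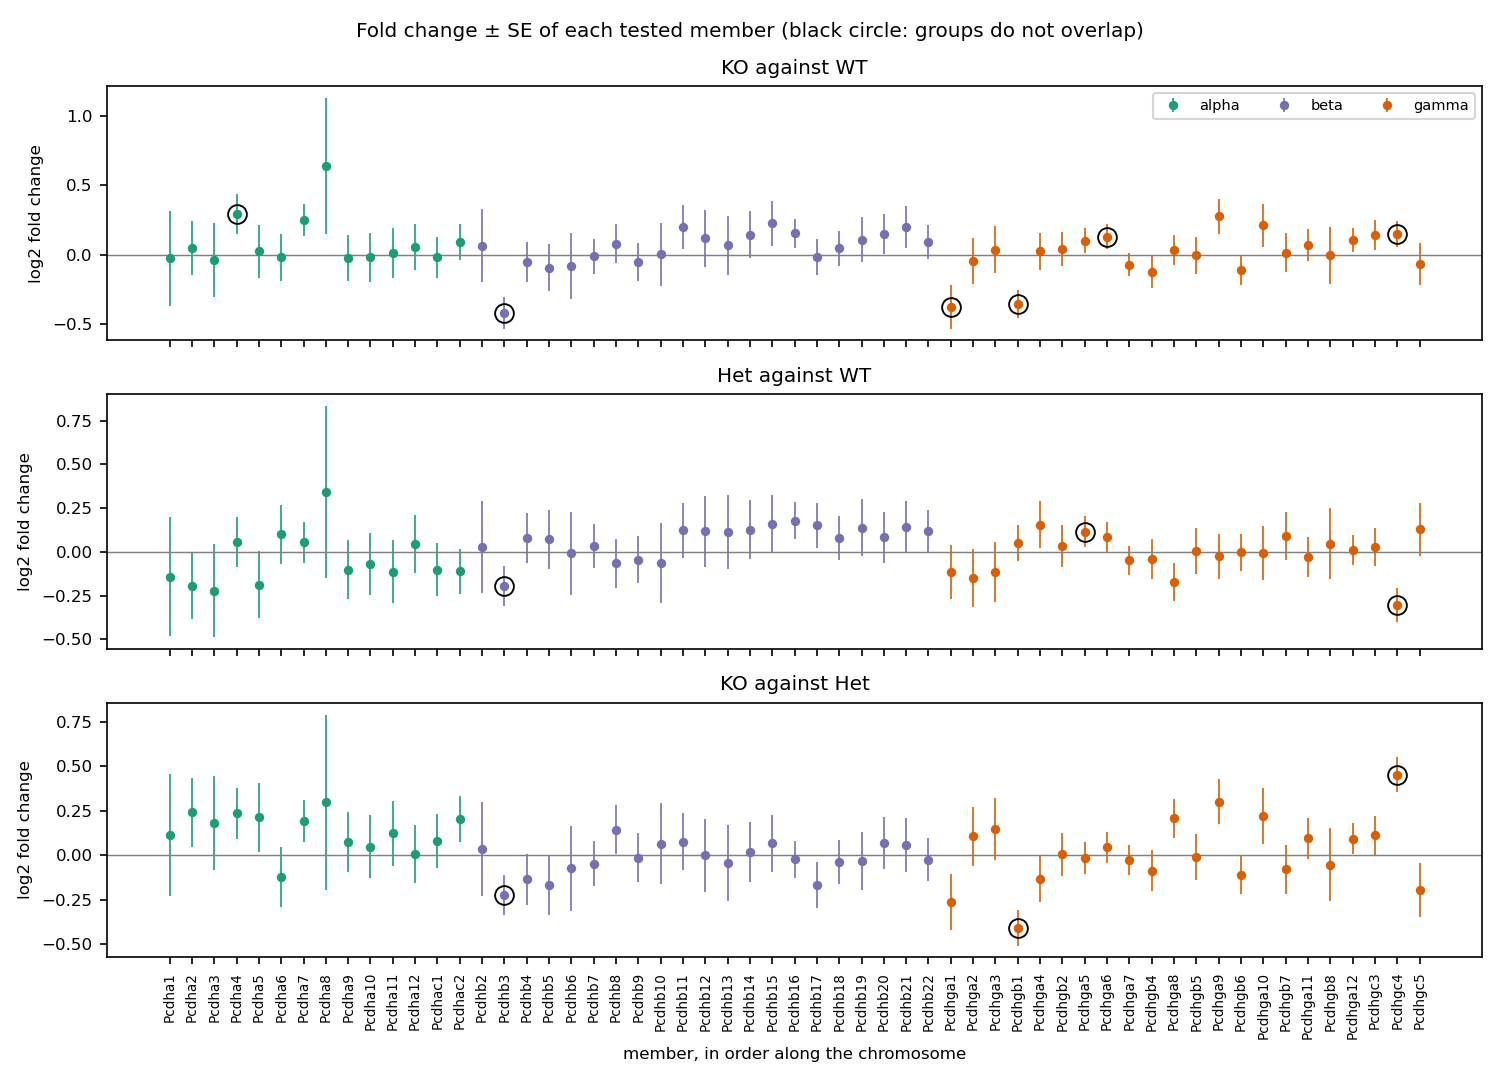
Log2 fold change of each tested member with its standard error (vertical lines, limma), in gene order along each cluster, for the 3 comparisons of genotypes, with a black circle where the libraries of the compared genotypes do not overlap. Most members lie near 0, Pcdhb3 and Pcdhgb1 lie below 0 for KO against WT, Pcdhgc4 lies below 0 for Het against WT and above 0 for KO against Het, and no member passed after adjustment.

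Het was set against WT to see what differs when 1 copy is mutant. Here too no protocadherin passed. Of the 57 tested genes 0 passed (smallest adjusted p = 1.00 by limma with Benjamini-Hochberg adjustment), as did 0 of all genes tested (0%), of which 242 had an unadjusted p under 0.05 (1.61%). Only Pcdhgc4 was past the unadjusted limit, with lower values in Het, as were 0.644% of all genes, and 0.962% were past it with higher values. Separation of all Het from all WT libraries occurred upwards in 1 member, Pcdhga5, and downwards in 2, Pcdhb3 and Pcdhgc4, against 3.36% upwards, 3.31% downwards and 6.67% in either direction of all genes. Neither count of members was far from the share among all genes. The median log2 fold change was -0.10 in alpha, 0.08 in beta and 0.00 in gamma, against -0.01 over all genes, and 32 of 57 members were positive, against 46.2% of all genes. The alpha median was 0.0018 without Het replicate 1 and 0.0014 without WT replicate 3, and the gamma median was -0.04 without Het replicate 2 and -0.03 without WT replicate 3.

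Pcdhgc4 (ENSMUSG00000023036) had 3199.97, 3114 and 3628 normalized counts in KO, 2415, 2129 and 2743 in Het, and 2867, 3096 and 2994 in WT. All Het libraries were below all WT libraries, and all KO libraries were above both, although the lowest KO value was close to the highest WT value. The means were 3314 ± 276 in KO, 2429 ± 307 in Het and 2986 ± 115 in WT (SD, n = 3). Het stood at 81.4% of WT, a log2 fold change of -0.30 ± 0.10 (95% interval -0.52 to -0.09, unadjusted p = 0.0121, adjusted p = 1.00, limma). The value was -0.30 in the libraries without olfactory bulb RNA and -0.31 in those with it.

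Pcdhga5, singled out because its groups did not overlap, had 760.0, 845.1 and 683.9 normalized counts in KO, 788.2, 763.2 and 753.6 in Het, and 676.2, 746.1 and 705.2 in WT, and a log2 fold change of 0.12 ± 0.09 for Het against WT. Its KO libraries overlapped both other genotypes. In the alpha cluster the smallest p in each direction for Het against WT belonged to Pcdha8 (0.34 ± 0.49) and Pcdha2 (-0.19 ± 0.19). In the beta cluster Pcdhb16 (0.18 ± 0.11) had the smallest p among positive members, and Pcdhb3, given above, among negative ones.

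Comparing KO with Het, which differ in their number of mutant copies, again called no member. Of 57 members 0 passed (smallest adjusted p = 0.942, limma with Benjamini-Hochberg adjustment) and 0 of all genes tested (0%), while 541 genes had an unadjusted p under 0.05 (3.59%). Of the members 3 were past that limit: Pcdhgc4 and Pcdhga9 with positive values and Pcdhgb1 with a negative one, against 1.42% of all genes with positive and 2.17% with negative values. KO and Het libraries did not overlap in Pcdhgc4 (KO above), Pcdhb3 and Pcdhgb1 (KO below), against 7.82% of all genes (3.15% with KO above and 4.68% with KO below). With the replicate number as a block, 0 members passed, while 6 with positive and 2 with negative values were past the unadjusted limit, as were 6.53% of all genes.

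The log2 fold change of Pcdhgc4 for KO against Het was 0.45 ± 0.10 (95% interval 0.23 to 0.67, unadjusted p = 0.00125, adjusted p = 0.942, limma), and KO stood at 136% of Het. It was 0.59 without and 0.39 with olfactory bulb RNA, and kept its sign in all 20 alternatives. Several of these, such as leaving out a WT library, cannot change a KO to Het value. Since KO and Het values are each also set against the same WT libraries, the 3 comparisons are not independent: the KO to WT value of Pcdhgc4 was 0.15 ± 0.10. Pcdhga9 had 541.7, 508.6 and 412.9 normalized counts in KO, 426.7, 394.9 and 360.2 in Het, and 377.5, 432.8 and 392.2 in WT, and a KO to Het value of 0.30 ± 0.13 (adjusted p = 0.942, limma).

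In the alpha cluster 13 of 14 genes had a positive log2 fold change for KO against Het, with a median of 0.15, against 50.4% positive and a median of 0.00 over all genes. In the beta cluster 8 of 21 were positive (median -0.02) and in the gamma cluster 11 of 22 (median -0.00). The alpha genes share their constant exons, so their values are not separate measurements. Pcdha4 (0.24 ± 0.14) and Pcdhac2 (0.20 ± 0.13) were among the larger values, and the exception was Pcdha6 (-0.12 ± 0.17). Pcdha4 was at -0.01 in the libraries without olfactory bulb RNA, 0.53 in those with it, and 0.12 without KO replicate 2 and also without Het replicate 1. Pcdhac2 was at 0.17 without and 0.36 with olfactory bulb RNA, and at 0.11 without Het replicate 1. The alpha median was 0.14 in the libraries without olfactory bulb RNA and 0.33 in those with it, and it was 0.05 without KO replicate 2 and 0.06 without Het replicate 1. The beta median was 0.04 without KO replicate 1 and 0.08 without Het replicate 3, and the gamma median was between 0.01 and 0.05 without KO replicate 1, KO replicate 3, Het replicate 2 or Het replicate 3.

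Same-numbered KO and Het libraries, whose deviations correlated by 0.45, 0.10 and 0.47, were taken as pairs, a link the labels do not state. The alpha sum was higher in KO in 3 of 3 pairs, by 689, 1379 and 78.95 normalized counts. The gamma sum was also higher in KO in 3 of 3 pairs, by 1160.0, 2974 and 795, and the beta sum in 1 of 3, with differences of 59.79, -271 and -219. An exact two-sided sign-flip permutation test gave p = 0.25 for alpha and for gamma, the smallest that 3 pairs allow, and p = 0.50 for beta. This paired comparison of sums was added after the data had been seen. In the pair of replicates 2, which gave the largest differences, KO held olfactory bulb RNA and no Ddx3y, and Het the reverse.

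Levels of many beta and alpha genes differed between libraries of the same genotype. Of the 21 tested beta genes, 3, 16 and 16 were above their own mean over the 9 libraries in KO replicates 1, 2 and 3, 0, 14 and 19 in the Het replicates, and 4, 4 and 17 in the WT replicates. So each genotype held a library with at most 4 beta genes above their mean and one with at least 16. Of the 14 alpha genes, 3, 11 and 11 were above their mean in the KO, 2, 3 and 8 in the Het, and 2, 9 and 13 in the WT replicates. The gamma genes had 8, 19 and 5 of 22 above their mean in KO, 10, 17 and 10 in Het, and 7, 15 and 9 in WT. Replicate 2 of each genotype thus had the most, at least 15, and every other library at most 10.

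Relative to the WT mean, the median log2 value of beta genes in single libraries ran from -0.08 in WT replicate 2 to 0.24 in Het replicate 3, and that of alpha genes from -0.20 in Het replicate 1 to 0.21 in KO replicate 2. The gamma medians ran from -0.08 in Het replicate 3 to 0.13 in KO replicate 2. Alpha and beta were both low in KO replicate 1, Het replicate 1 and WT replicate 1, and both high in KO replicates 2 and 3, Het replicate 3 and WT replicate 3. Of the low libraries KO replicate 1 and Het replicate 1 held olfactory bulb RNA, and of the high ones KO replicate 2 and WT replicate 3. The part of that RNA in these shifts was not tested. The spread within genotypes, as the median SD of log2 values, was 0.23 in alpha, 0.17 in beta and 0.15 in gamma genes, and 0.15 over all genes tested.

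**Figure D5:**
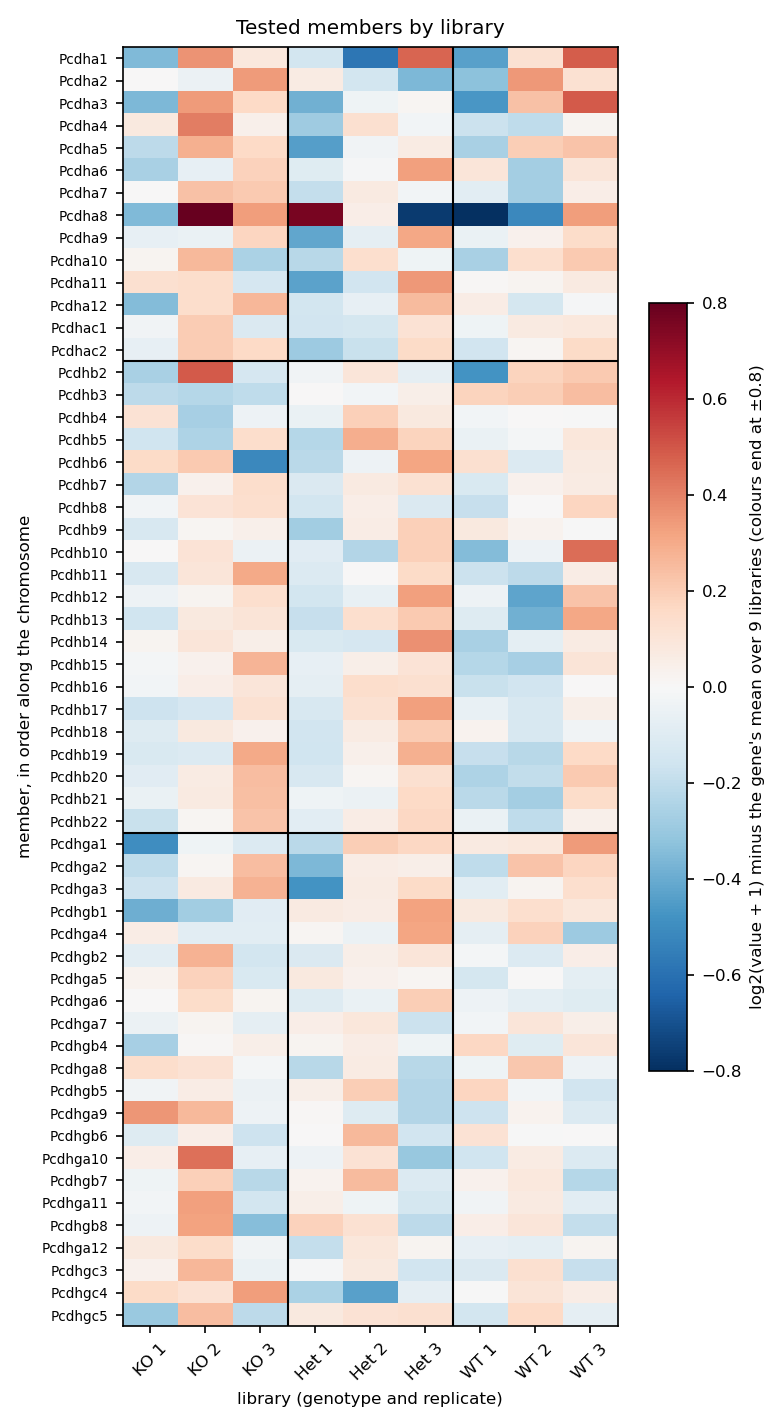
Log2(value + 1) of each tested member in each library minus its mean over the 9 libraries, as a colour grid (red above, blue below the mean) with genes in order along each cluster and libraries grouped as KO, Het and WT. Beta genes are low throughout in Het replicate 1 and high almost throughout in Het replicate 3, while the gamma genes are split in both, with 10 of 22 above their mean in each.

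Genes that work with the clustered protocadherins were described by the same fit, in lists chosen with earlier results of these data known, and 0 genes of any list passed in any of the 3 comparisons. Of 20 chromatin regulators of the clusters 9 had a positive log2 fold change for KO against WT (median -0.00). Pds5b, which holds cohesin in balance on DNA, had 4811, 4853 and 4807 normalized counts in KO, 4573, 4425 and 4779 in Het, and 4297, 4371 and 4452 in WT, with all KO above all WT libraries and a log2 fold change of 0.14 ± 0.04 (adjusted p = 1.00, limma). Ctcf, which encodes the factor that joins protocadherin promoters to their enhancers, had -0.08 ± 0.05, with all KO libraries (4866, 4683 and 5011) below all WT libraries (5282, 5085 and 5061). For Het against WT 18 of these 20 genes were positive (median 0.04), and for KO against Het 4 were (median -0.04). Beside the counts of this and the following lists, 48.4% of all genes tested were positive for KO against WT. For Het against WT 46.2% were, and for KO against Het 50.4%. All KO lay apart from all WT libraries in 6.46% of all genes tested.

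Of 18 signalling partners, which include the WAVE complex, 8 were positive for KO against WT (median -0.02), with Abi1, a WAVE subunit, at 0.10 ± 0.05 and Cyfip2 itself at -0.42 ± 0.06 (adjusted p = 0.678, limma). Of 12 protocadherins outside the clusters 10 were positive (median 0.10). Pcdh12, an endothelial protocadherin, had 0.34 ± 0.26 and Pcdh7 had -0.10 ± 0.14, and both overlapped between the genotypes. All 7 markers of endothelial and mural cells also had positive values, with summed normalized counts of 18379, 14516 and 13809 in KO, 15891, 13563 and 8003 in Het, and 12395, 12033 and 13275 in WT. The part of these cells in the Pcdh12 value was not tested.

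Of 16 classical cadherins and catenins 6 were positive for KO against WT (median -0.03). Ctnnd1, which encodes p120 catenin, had 0.12 ± 0.05, with all KO libraries (7754, 8103 and 7643) above all WT libraries (7364, 7479 and 6726), and Ctnna2, the neuronal alpha catenin, had -0.05 ± 0.07. Of the 7 large cadherins of planar polarity 4 were positive (median 0.05), with Fat3 at 0.08 ± 0.09 and Celsr2 at -0.06 ± 0.07. The same 7 had a median of 0.16 for Het against WT, all positive, and of -0.15 for KO against Het, with 1 positive.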

How the data were processed

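The 9 libraries were made with a stranded mRNA kit, per the labels' protocols. The deposited table holds a signal per gene and library, gene counts that the authors divided by size factors, per the file headers. The build GRCm38 and the tools R 3.6.0, Salmon 0.11.2 and DESeq2 1.19.11 are listed, without their roles, in the submitters' processing notes. Low values lay near multiples of a step worth about 1 read, but only 60.8% to 78.2% of those below 6 were within 0.1 of a whole number of steps, so count tests were not used. Dividing totals by the step gave the approximate depth.

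Symbols came from GENCODE M21 (18783 of 18820 IDs matched). It gives the symbol Pcdha11 to a pair of IDs, and the one that spans the RefSeq gene Pcdha10 is called Pcdha10. Lengths are merged exons. limma 3.58.1 in R 4.3.3 fitted log2(value + 1) of 15069 genes (mean 10 or more) in all 9 libraries, with eBayes and a trend, two-sided, with Benjamini-Hochberg adjustment over all genes and a threshold of 0.05. Fold changes on this scale understate those of low genes. The procedure was tested on simulated data.

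The genes and lists were chosen with earlier results of these data known. Named members are the 3 with the highest mean per cluster, the C-type genes, those with the smallest p per cluster, comparison and direction, and those beside the filter. Pcdhga1 and Pcdhga6, and other genes named for a level or place, were chosen after their values were seen. In other lists the gene with the smallest p in each direction for KO against WT was named.

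The labels number replicates 1 to 3 in each genotype without saying that numbers are shared. Deviations from the genotype means correlated between same-numbered KO and Het libraries by 0.45, 0.10 and 0.47, and were taken as paired there. The correlations were -0.01, 0.06 and -0.03 for KO and WT, and -0.07, 0.25 and 0.03 for Het and WT, which were not.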

Additional observations from a re-analysis of the deposited data

How the results depend on the processing

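No clustered protocadherin passed in any of the 3 comparisons under any of the 20 alternatives run. Of 1737 values recomputed for 87 results, 1712 stayed within the spread between libraries or on the same side of the threshold, and 25 moved. A value of a single member counted as unchanged, whatever its sign, unless its adjusted p crossed the threshold, which none did. Among these single-member values 134 had the opposite sign to the main fit, so the 1712 say little about single members. Of the 75 results of single named members 26 kept their sign throughout, Pcdhb3, Pcdhgb1 and Pcdhgc4 for KO against WT among them. Some alternatives cannot change a fold change or a median: the replicate block, fitting only the compared genotypes, and leaving out a library of the genotype not compared. They are counted as unchanged, so these totals overstate how stable the values are. With the replicate number as a block, 0 genes passed in each comparison, so the pairing changed no call.

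Over all genes, 1 passed for Het against WT and 1 for KO against Het when only the compared genotypes were fitted. With sex as a covariate the KO to WT median was 0.20 in alpha and 0.19 in beta. In the libraries without olfactory bulb RNA, KO to WT medians were 0.24 in alpha, 0.21 in beta and -0.10 in gamma, and Het to WT medians 0.11 in alpha and 0.27 in beta. In the libraries with it, 53 genes passed for KO against WT, 31 for Het against WT and 30 for KO against Het. There the KO to WT medians were -0.13 in beta and 0.13 in gamma, the Het to WT medians -0.37 in alpha and -0.24 in beta, and the KO to Het median 0.33 in alpha. The causes were not tested. TMM rescaling was not run, since the values are not counts.

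Leaving out 1 library at a time gave 0 to 1 genes passed in each comparison. For KO against WT the medians lay between -0.031 and 0.16 in alpha, 0.0085 and 0.18 in beta, and -0.04 and 0.08 in gamma. For Het against WT they lay between -0.14 and 0.00 in alpha, 0.02 and 0.18 in beta, and -0.04 and 0.03 in gamma. For KO against Het they lay between 0.05 and 0.28 in alpha, -0.09 and 0.08 in beta, and -0.05 and 0.05 in gamma. With 3 libraries a genotype, the median standard error of a member was 0.15 on the log2 scale, which limits what could be detected.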
